A study of Mus musculus with 3 samples.

Results

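Epineurial-set cells of injured mouse sciatic nerve were 253 of the 1289 cells in the authors' table of injured mesenchymal cells (19.6%, 17.5 to 21.9). They were chosen by 5 genes: Pcolce2, an enhancer of procollagen processing, Clec3b, the plasminogen-binding protein tetranectin, Dpp4, a cell-surface peptidase, Pi16, a protein of the peptidase inhibitor 16 family, and Sema3c, a secreted semaphorin. A cell was taken when the mean z-score of these genes was above 0 and higher than the mean z-scores of 3 other sets. The others were a differentiating set (Dlk1, Mest, Postn, Tnc, Cthrc1, Aspn), an endoneurial set (Sox9, Osr2, Etv1, Apod, Wif1) and a perineurial set (Slc2a1, Itgb4, Cldn1, Msln, Lypd2). The name refers to that gene set only. Position in the nerve was not measured, and the markers that would check the label (Pcolce2, Clec3b, Dpp4 and Pi16) were themselves used for the choice.

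The series profiled adult sciatic nerve by Drop-seq, which tags each captured transcript with a cell barcode and a molecular identifier (UMI), after collagenase and trypsin digestion. It has 3 libraries, 1 per group: injured nerve of Wildtype CD1 mice cleaned with myelin removal beads, injured nerve of CD1 and C57BL/6 mice sorted by FACS (no gate is described here), and uninjured nerve of Wildtype CD1 mice cleaned with beads. Both injured libraries are distal segments collected on day 9 after the nerve was resected, and the uninjured one holds only cells predicted by the authors to be mesenchymal. With 1 library per group there is no replicate check and no test. Ranges in brackets are 95% intervals for counting error alone, and differences between animals or library preparations cannot be told apart from injury. The 2 beads libraries share strain and cleaning method, whereas the FACS library differs from them in both.

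The epineurium is the outer connective tissue of a nerve. It wraps the perineurium, a layered barrier of flattened cells, which in turn encloses the endoneurium, where axons and Schwann cells lie. Fibroblasts that carry Pi16 and Dpp4 occur in the outer sheaths of vessels and organs of many tissues, are rich in matrix and secreted proteins, and are often described as a progenitor-like or universal fibroblast state. After axons are cut, the distal stump degenerates, macrophages clear debris, and connective tissue cells change what they secrete.

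The injured mesenchymal table held 4746263 UMIs (median 2798 per cell), the uninjured one 2169121 UMIs from 880 cells (median 2102.5), and the FACS library 2000 barcodes with 7122377 UMIs. Of the FACS barcodes, 740 scored highest for mesenchymal markers and were used. No barcode was shared between the 2 mesenchymal tables, or between either and the FACS table. Epineurial-set cells of the injured beads library were shallower than the other 1036 cells of their table, with a median of 1949 against 3392.5 UMIs. Pools of summed counts were therefore compared in CPM, which scales the UMIs of a pool to a total of 1000000.

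Applied to the other libraries with their own z-scores, the same rule took 153 of 740 FACS mesenchymal cells (20.7%, 17.8 to 23.8) and 258 of 880 uninjured cells (29.3%, 26.3 to 32.4). A z-score is relative to its own table, so these shares do not compare abundance. With the means and SDs of the injured table, 41.25% of uninjured cells were taken. The median depth was 3748 UMIs in FACS epineurial-set cells and 2077 in uninjured ones.

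The genes of the rule are given as a description, since they chose the cells. Pcolce2 (chr9:95637601-95698096 on the plus strand of GRCm38, as are all positions here, which span whole genes) had 638 CPM (575 to 706) in injured epineurial-set cells and 5.53 in the other injured cells, with 1475 and 502 CPM in uninjured and FACS epineurial-set cells. Clec3b had 2003 CPM against 177 in the other cells, and Pi16 had 1839 against 170. Dpp4 had 268 CPM against 15.1 and Sema3c 655 against 63.0. Pcolce2 was thus the scarcest of the 5 outside the chosen cells, while Clec3b, Pi16 and Sema3c were also read in many other mesenchymal cells.

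Pcolce2 was detected in 52.2% of epineurial-set cells, 2.12% of the other mesenchymal cells, 0.554% of endothelial-class cells and 0.435% of phagocyte-class cells of the same library. Median depths of these 4 groups were 1949, 3392.5, 2028.5 and 1098 UMIs. Clec3b was detected in 88.9% of epineurial-set cells, 24.2% of other mesenchymal cells and 3.51% of endothelial-class cells. For Dpp4 the share was 27.3%, against 4.92% of other mesenchymal cells and 7.53% of B-class cells, so Dpp4 was also read in a non-mesenchymal class. After each cell was thinned to 1000 UMIs, 191 epineurial-set and 783 other cells were left, of which 42.9% and 0.766% had Pcolce2.

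The cells differed widely in how strongly they met the rule. The epineurial score ran from 0.00584 to 3.61 with a median of 0.870, while the other cells had a median of -0.354 and a highest value of 0.941. Of the 5 genes, 1 was seen in 29 cells, 2 in 78, 3 in 61, 4 in 57 and all 5 in 28. The highest-scoring cell carried 14 UMIs of Pi16, 4 of Pcolce2, 4 of Clec3b, 2 of Dpp4 and 2 of Sema3c among 954 UMIs. At the edge, a cell with 2 UMIs of Clec3b among 824 UMIs was taken with a score of 0.00584, and a cell with 2 UMIs of Clec3b among 874 was left out at -0.00278. In all, 30 cells lay within 0.1 inside the boundary and 40 within 0.1 outside it.

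**Figure D1:**
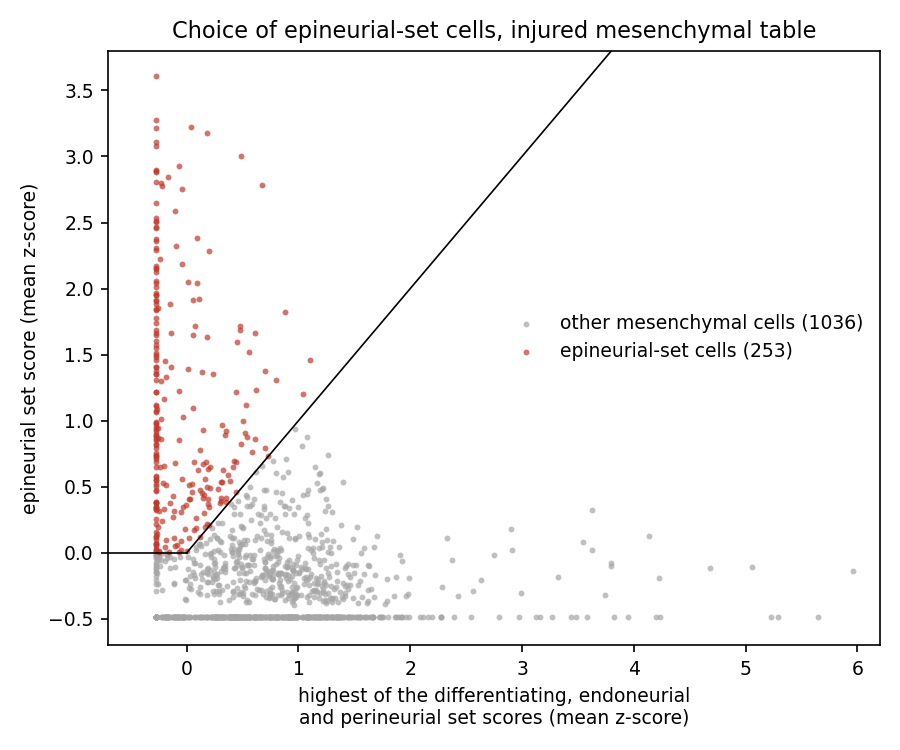
Each point is 1 cell of the injured mesenchymal table, with its epineurial set score (vertical axis, mean z-score) against the highest of its other 3 set scores (horizontal axis, mean z-score); black lines mark the rule. The 253 epineurial-set cells (red) spread from 0.00584 to 3.61 with no gap at the boundary, and the 1036 other cells (grey) reach 0.941.

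The plot of set scores shows no separate cloud, and some chosen cells also scored above 0 for another set. The differentiating score was above 0 in 61 of the 253 cells (24.1%), the endoneurial score in 20 (7.91%) and the perineurial score in 18 (7.11%). No other set was above 0 in 164 cells (64.8%), and some values in those 164 are given beside the whole. Among the 5 genes of the rule, Dpp4 weighed on the count: without it, 22.5% of the table was taken.

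What the cells shared beyond the rule was examined with the 21 genes of the 4 sets removed. Each cell's 15 nearest neighbours in expression were then found among the 1289 cells. For epineurial-set cells, 63.6% of neighbours were epineurial-set cells, where such cells were 19.6% of the table. Neighbours of differentiating-set, endoneurial-set and perineurial-set cells were epineurial-set cells in 9.88%, 2.63% and 5.27% of cases. The 139 cells with no score above 0, which had a median depth of 616 UMIs, stood between, at 22.7%. Thinned to 1000 UMIs, the value for epineurial-set cells was 61.7%. At least 50% of neighbours were of the same set for 169 of the 253 cells, so a minority lay among cells of other sets.

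Against the other injured mesenchymal cells, epineurial-set cells carried more RNA of 16 of 19 universal fibroblast genes, 6 of 9 complement genes and 8 of 17 elastic fibre genes, and of the Wnt antagonists Sfrp2, Sfrp4 and Dkk2. They carried less RNA of 5 of 19 immediate early genes. Of 6 dividing-cell genes past 50 CPM 4 were lower, and in the FACS library 2 of 5 were. Of 14 chemokines and cytokines, 3 were higher and 4 lower. A size rule was used throughout: at least 50 CPM in 1 of the pools, a ratio of at least 2-fold, and an interval that excluded 1. By it, 276 of 4099 genes were higher (6.73%) and 231 were lower (5.64%), the genes of the 4 sets left out. Since the cells were chosen within this contrast, nothing is read from those counts. In the FACS library the same contrast gave 282 higher (7.24%) and 261 lower (6.7%) of 3893 genes. Of the 276 higher genes, 226 had 50 CPM in a FACS pool, and 184 were at least 2-fold higher there too. In uninjured nerve the contrast gave 344 higher (9.18%) and 281 lower (7.5%) of 3749 genes.

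The genes with the highest ratios had varied roles, and Pcsk6 and Smpd3 led them. Pcsk6 (chr7:65861734-66050386), a proprotein convertase, had 98.9 CPM in injured epineurial-set cells, 98.9 in FACS ones and 178 in uninjured ones, against 1.68, 2.42 and 8.35 CPM in the other cells of the 3 libraries. Its log2 ratio in the injured beads library was 5.88 (4.74 to 7.25), and its UMIs came from 32 cells. Smpd3 (chr8:106252548-106337988), a neutral sphingomyelinase, had 125, 33.4 and 348 CPM in the same order against 2.16, 0.908 and 35.3 CPM, a log2 ratio of 5.85 (4.84 to 7.03) in the injured beads library. Both genes were higher in epineurial-set than in other cells of each library, with the smallest log2 ratio, 3.30, for Smpd3 in uninjured nerve.

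Inmt (chr6:55170626-55175043), a methyltransferase of small amines, had 515 CPM in injured epineurial-set cells, 391 in FACS ones and 1307 in uninjured ones, against 20.9, 19.4 and 410 CPM in other cells. Its injured log2 ratio was 4.62 (4.27 to 4.98), and 49 cells carried it. Myoc, the secreted glycoprotein myocilin, had 160 against 7.45 CPM in the injured beads library and 85.8 against 5.45 CPM in the FACS library. In uninjured nerve Myoc had 653 CPM in epineurial-set cells and 530 in the others, a log2 ratio of 0.30 that was under the size rule. Comp, a matrix protein of the thrombospondin family, had 326, 88.7 and 781 CPM in injured, FACS and uninjured epineurial-set cells, and 325 CPM also in the injured cells with no score above 0.

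Others named by the same rule were Cadm3 (an adhesion molecule), Edn1 (the vasoconstrictor peptide endothelin-1), Cxcl13 (a chemokine that attracts B cells), Eln (elastin), Rcan2 (a calcineurin regulator), Engase (a glycosidase) and Efhd1 (a calcium-binding mitochondrial protein). Cadm3 was the most widespread of them, in 73 of the 253 cells (28.9%, against 2.99% of the other cells), with 189 against 8.89 CPM. Edn1 had 133 against 7.21 CPM and Cxcl13 had 229 against 12.7 CPM. Log2 ratios of the 7 genes ran from 3.52 for Efhd1 to 4.41 for Cadm3. Krtdap, a small secreted protein known from keratinocytes, was under the size rule with 32.4 CPM, but had 0 UMIs in the other 1036 cells. Its levels in FACS and uninjured epineurial-set cells were 43.6 and 113 CPM.

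**Figure D2:**
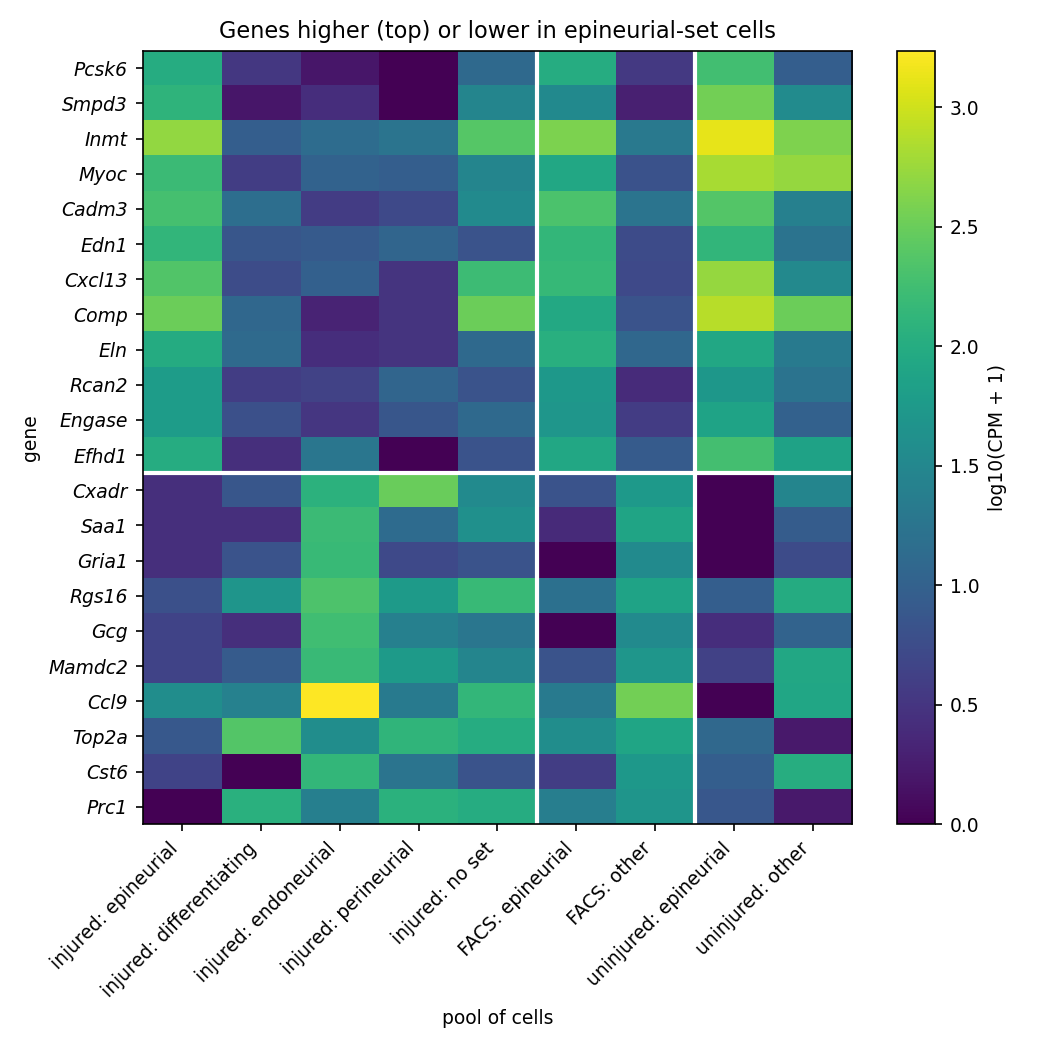
Level of each named gene (rows, the 12 highest ratios above the 10 lowest) in pools of cells (columns), coloured by log10 of CPM plus 1; white lines separate the libraries and the 2 groups of genes. Injured, FACS and uninjured epineurial-set pools are lighter than the other pools of their library for Pcsk6 and Smpd3, and Ccl9 is lightest in injured endoneurial-set cells, at 1719 CPM.

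The heat map of named genes sets the genes with the lowest ratios below those with the highest. Several of the lowest were at 1 to 4 UMIs in the 253 cells, so their ratios are loosely bounded. Cxadr, a junctional adhesion receptor, had 1 UMI (1.71 CPM) against 91.1 CPM in the other cells, a log2 ratio of -5.74 (-11.05 to -3.25), and its highest level was 314 CPM in perineurial-set cells. Saa1, an acute-phase protein with a near-identical copy, Gria1, a glutamate receptor subunit, Gcg, the glucagon precursor, Mamdc2 and Cst6, a cystatin, had 1 or 2 UMIs each. In endoneurial-set cells the 5 genes had between 136 and 177 CPM. The chemokine Ccl9 had 37.5 CPM in epineurial-set cells, 758 in the other cells and 1719 in endoneurial-set cells.

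Of the 27 lists, that of universal fibroblast genes held the most higher genes. Of 22 listed genes, 19 were past 50 CPM, and 16 of these were higher and 0 lower. The median log2 ratio was 1.62 over the 19, where the median of all 4099 genes was -0.02. In the FACS library 17 of 19 were higher. Ly6a, a surface protein known as Sca-1, had 2680 CPM in injured epineurial-set cells, 3711 in FACS ones and 3072 in uninjured ones, against 582 CPM in other injured cells. Cd55, which protects cells from complement, had 268 against 23.8 CPM, with 266 and 265 CPM in FACS and uninjured epineurial-set cells. Cd34, a sialomucin of stromal and vascular cells, had 672 against 259 CPM, and Fbn1, the microfibril protein fibrillin-1, 2431 against 1143 CPM. The list was drawn up with these genes known for such cells, and Pi16-carrying cells were the ones chosen.

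Cd34 and Ly6c1, another surface protein of the list with a near-identical copy, are also genes of blood vessels. Thinned to 1000 UMIs, Cd34 was seen in 42.4% of epineurial-set cells, 21.2% of other mesenchymal cells and 42.3% of endothelial-class cells. Ly6c1 was seen in 59.2%, 11.7% and 49.7% of them. The defining endothelial markers summed to 186 CPM in epineurial-set cells and 184 CPM in the other injured cells. The part of endothelial RNA in these differences was not tested.

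Among complement genes, 6 of the 9 past 50 CPM (11 listed) were higher and 0 were lower (median log2 1.53). C4b, a component of the classical and lectin pathways, had 655 CPM in injured epineurial-set cells, 541 in FACS ones and 379 in uninjured ones, against 115 CPM in the other injured cells. C3, the central component, had 1503, 1086 and 1994 CPM against 521. Both genes were thus more abundant than in the other injured cells. C4b shares nearly all its sequence with C4a, and its value is uncertain where reads could be split.

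Secreted Wnt antagonists differed in both directions. Sfrp2 had 1274 CPM in injured epineurial-set cells against 143 in the others (log2 3.16), Sfrp4 3550 against 582 (2.61) and Dkk2 384 against 76.9 (2.32). FACS and uninjured epineurial-set cells had 1236 and 2149 CPM of Sfrp2. Sfrp5, of the same family, had 6.82 against 367 CPM and was at 2976 CPM in perineurial-set cells. Wif1, another antagonist and a gene of the endoneurial set, had 35.8 against 958 CPM. In the whole list of Wnt ligands and antagonists, 4 of 7 genes past 50 CPM (14 listed) were higher and 1 was lower. The ligand among the 4 was Wnt5a, with 107 against 50.2 CPM.

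BMP and growth factor genes split in both directions. Gdf10, a ligand of the BMP family, had 353 CPM against 39.7 in the other injured cells, with 368 and 630 CPM in FACS and uninjured epineurial-set cells. The antagonists Fst (follistatin) and Chrdl1 had 317 against 68.5 CPM and 457 against 198 CPM. Among growth factors, Fgf10 had 109 against 11.3 CPM and Figf, the lymphatic growth factor VEGF-D, 116 against 24.5 CPM. Mdk, the heparin-binding factor midkine, was lower than in the other injured cells, with 309 against 767 CPM, and so was Igf2, with 119 against 357 CPM. Counts past 50 CPM were 3 higher and 1 lower of 9 BMP genes, and 3 higher and 2 lower of 10 growth factors.

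In the matrix lists, elastic fibre genes leaned one way and collagens did not. Of 17 elastic fibre and microfibril genes past 50 CPM (18 listed), 8 were higher and 1 was lower (median log2 0.91). Fbln2, a fibulin, had 786 against 226 CPM, and Ltbp4, which binds latent TGF-beta to microfibrils, 800 against 262 CPM. The exception was Fbn2, fibrillin-2, with 138 against 402 CPM. Without cells that carried RNA of other classes, 5 of these genes were higher. Of 16 collagen genes, 1 was higher and 3 were lower, with a median of -0.03. The 1 higher was Col14a1, a fibril-associated collagen, with 1690 against 790 CPM, and Col11a1, a fibrillar collagen of cartilage, was among the lower ones, with 27.3 against 206 CPM.

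Proteoglycans and adhesive proteins were likewise mixed in the injured beads library. The small proteoglycans Fmod (130 against 21.2 CPM), Ogn (2668 against 752 CPM) and Omd (87.0 against 30.8 CPM) were higher, and Lum (2030 against 5369 CPM) was lower. In the FACS library 4 of 9 small proteoglycans were higher and 0 lower, so the lower call of Lum was not seen there. Tnxb, tenascin-X, had 401 against 91.6 CPM, whereas Thbs4, a thrombospondin, had 159 against 1296 CPM. Among 25 proteases and inhibitors, 6 were higher and 4 lower. Htra3, a serine protease, had 536 against 72.4 CPM, and Adamts5, which cleaves aggrecan and versican, 580 against 100.2 CPM. Timp1 and Serpine2, inhibitors of matrix metalloproteases and of serine proteases, were lower, with 251 against 759 CPM and 409 against 1580 CPM. Cells with no other set above 0 gave 7 lower genes in this list.

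Detoxification and lipid genes were higher more often than lower. Of 9 redox genes past 50 CPM, 5 were higher and 0 lower, among them the glutathione transferase Gstm1 (394 against 55.5 CPM) and the metal-binding metallothionein Mt1 (565 against 239 CPM). Leaving out cells with RNA of other classes left 3 of the 5. Of 12 lipid and retinoid genes, 5 were higher and 1 lower. Lpl, lipoprotein lipase, had 2032 against 414 CPM, and the retinoic acid-forming enzyme Aldh1a3 was the lower one, with 71.6 against 250.0 CPM. In the FACS library 3 lipid genes were higher and 2 lower.

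Dividing-cell genes were at very low levels in injured epineurial-set cells. Of 6 listed genes past 50 CPM (23 listed), 0 were higher and 4 were lower. Top2a, a topoisomerase of dividing cells, had 6.82 against 131 CPM, and Mki67, the Ki-67 proliferation antigen, 6.82 against 66.8 CPM. Prc1, which bundles the central spindle, had 0 UMIs against 74.0 CPM, a log2 ratio of at most -3.85 when taken against 3 counts. Top2a, Mki67 and Prc1 reached 50 CPM only in the other cells, where they were higher. The floor thus favoured lower calls, and the count is a description. In the FACS library 2 genes of the list were lower, and Mki67 had a log2 ratio of -0.35 there, under the size rule. Thinning or leaving out cells with RNA of other classes also gave 2 lower genes.

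Immediate early genes were lower as well, in 5 of 19 cases, with 0 higher and a median of -0.71 on the log2 scale. Ier2 had 386 against 1115 CPM, Nr4a1, a nuclear receptor induced by stimulation, 95.5 against 329 CPM, and Egr2, a zinc finger factor, 17.1 against 82.2 CPM. Enzymatic digestion is known to induce such genes. Depth also moved with this contrast, since epineurial-set cells had fewer UMIs. The part of digestion in the result was not tested, and that of depth was not tested beyond thinning. With cells of no other set above 0, 9 genes were lower and 1 was higher, and thinned to 1000 UMIs 2 were higher.

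Chemokines differed among themselves. Csf1, which supports macrophages, had 246 CPM in injured epineurial-set cells against 81.2 in the other injured cells. Ccl2, the monocyte attractant, had 225 against 1475 CPM, the neutrophil attractant Cxcl1 271 against 947 CPM, Cxcl5 27.3 against 217 CPM and the eosinophil attractant Ccl11 322 against 793 CPM. Of 14 listed genes past 50 CPM, 3 were higher and 4 lower, with a median of -0.03. The actin-severing protein Gsn was among the most abundant transcripts that differed, with 9269 CPM in injured epineurial-set cells and 1030 in the others. Among transcription factors, Osr1 (191 against 45.7 CPM), Ebf1 (466 against 176 CPM) and Prrx1 (749 against 289 CPM) were higher and the nuclear receptor Nr2f2 (147 against 336 CPM) was lower. In the FACS library 4 of 13 transcription factors past 50 CPM were higher and 0 lower.

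Epineurial-set cells were also graded by how many of the 5 chosen genes they showed. This is a description only, since those genes chose the cells and the genes given were picked after their values were seen. In cells that showed 4 or 5 of the 5 chosen genes, Cd55 had 476 CPM, Smpd3 259, Pcsk6 221 and Myoc 306. In the 29 cells that showed only 1 gene, Cd55, Pcsk6 and Myoc were at 0 UMIs (0 to 123 CPM each). Smpd3 was at 33.3 CPM (0.844 to 186) in them, from 1 UMI. Other genes ran the opposite way. Comp had 600 CPM (18 UMIs in the pool of 29 cells) where 1 gene was seen, 542 with 2, 327 with 3 and 136 with 4 or 5. Inmt had 1133, 823, 444 and 263 CPM in the same order. Fmod, the proteoglycan fibromodulin, had 300, 256, 78.4 and 51.0 CPM. Gsn changed little, between 7134 and 10848 CPM. Median depth moved with this grading, from 771 UMIs with 1 gene to 2421 with 4 or 5, and its part in the result was not tested.

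Pairs of genes that mark fibroblast kinds were counted in cells thinned to 1000 UMIs. Pi16 or Dpp4, both part of the rule, was seen in 60.7% (53.4 to 67.7) of injured, 63.6% (54.8 to 71.8) of FACS and 66.4% (59.8 to 72.5) of uninjured epineurial-set cells. Gdf10 or Inmt was seen in 30.4% (23.9 to 37.4), 24.2% (17.2 to 32.5) and 46.5% (39.8 to 53.2), and Comp or Fmod in 13.1% (8.65 to 18.7), 7.58% (3.69 to 13.5) and 23.01% (17.7 to 29.1). For Gdf10 or Inmt after thinning, the interval of the uninjured library did not overlap that of either injured library. Unthinned, Gdf10 or Inmt was seen in 35.2% (29.3 to 41.4), 43.1% (35.2 to 51.4) and 53.1% (46.8 to 59.3). There the uninjured interval overlapped that of the FACS library and not that of the injured beads library. Such intervals cover the counting of cells within a library only, so a difference between conditions was not tested. For Comp or Fmod the unthinned shares were 13.8%, 15.03% and 28.3%. Each rule was scored within its own table, so the kinds of cells taken could differ between tables.

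**Figure D3:**
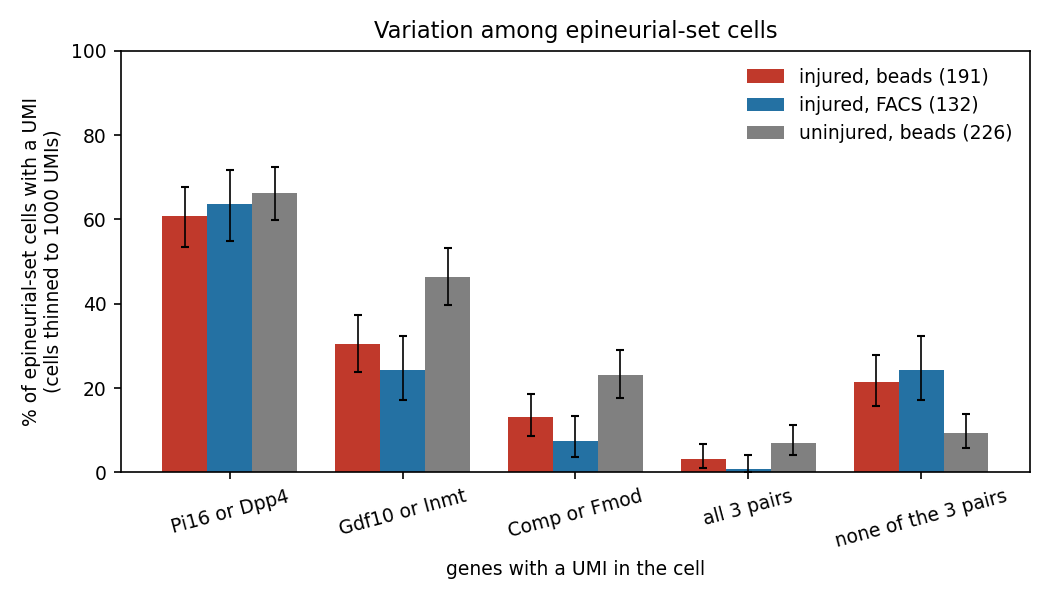
Share of epineurial-set cells of each library (vertical axis, percent) with a UMI of each gene pair after thinning to 1000 UMIs, with 95% exact binomial intervals. Pi16 or Dpp4 lies between 60.7% and 66.4% in the 3 libraries, and Gdf10 or Inmt is at 46.5% in uninjured against 30.4% and 24.2% in the injured libraries.

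The plot of gene pairs shows the largest gap between libraries for Gdf10 or Inmt. It also includes cells with none of the 3 pairs, which were 21.5% (15.9 to 28.0) of injured, 24.2% of FACS and 9.29% (5.84 to 13.9) of uninjured epineurial-set cells. All 3 pairs together were seen in 3.14% of injured and 7.08% of uninjured ones.

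Injured epineurial-set cells were then compared with uninjured ones. Injured cells had more RNA of pleiotrophin, midkine, the type 2 angiotensin receptor and fibrillin-2, and less of gelsolin and of the chaperones Hspa1a and Hspa1b. Of 7 genes known from resting endoneurium 5 were lower, and of 19 immediate early genes 8 were lower. By the size rule 238 of 3935 genes were higher after injury (6.05%) and 136 lower (3.46%), and over all genes the median was 0.12 on the log2 scale. That split depended on the scaling of the pools: with TMM factors it was 167 higher and 213 lower, and with DESeq2 size factors 164 and 217, where the median of all genes shifted by -0.14. FACS epineurial-set cells against the same uninjured cells gave 198 higher (5.24%) and 186 lower (4.93%) of 3776 genes. Of the beads genes, only 71 of the 238 higher and 65 of the 136 lower passed there in the same direction. Both contrasts share the uninjured pool, so their values are set side by side only. In endoneurial-set cells, 407 of 3745 genes were higher after injury (10.9%) and 339 lower (9.05%). Several of the changes above were seen there too. Of 7 resting endoneurial genes 6 were lower and 0 higher, and of 20 immediate early genes 17 were lower and 1 higher. Hspa1b and Hspa1a had log2 ratios of -2.27 and -1.34 there, and 5 of 6 growth factors were higher and 0 lower.

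Among genes with the highest ratios, Agtr2 and Fbn2 were read in 32 and 34 epineurial-set cells. Agtr2 (chrX:21484544-21489164), the type 2 receptor of angiotensin II, had 179 CPM in injured epineurial-set cells, 78.5 in FACS ones and 6.53 in uninjured ones. Its log2 ratio was 4.78 (3.38 to 6.68), from 105 UMIs. Phagocyte, neutrophil, endothelial, Schwann, T and NK, and B classes of the injured beads library had at most 3.91 CPM of Agtr2. The remaining non-mesenchymal classes were not examined for it. Other mesenchymal cells of that library carried Agtr2 too, with 121 CPM in differentiating-set, 112 in perineurial-set and 6.71 in endoneurial-set cells. The other FACS mesenchymal cells had 104 CPM. In cells with no other set above 0, Agtr2 had 72.0 CPM against 0 uninjured UMIs, a lower level than in the whole, beside a pool in which it was not detected. Fbn2, a microfibril protein prominent in development, had 138, 137 and 9.80 CPM in injured, FACS and uninjured epineurial-set cells, a log2 ratio of 3.82 (2.63 to 5.31), and 1.88 (0.06 to 4.31) with no other set above 0. In endoneurial-set cells the injured to uninjured log2 ratio was 0.94 for Agtr2 and 5.14 for Fbn2.

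Other genes of this kind were Emb, an adhesion glycoprotein, and Marcksl1, an actin-regulating protein. Emb had 138, 183 and 11.4 CPM in injured, FACS and uninjured epineurial-set cells, and Marcksl1 had 59.7 and 96.0 CPM with 0 uninjured UMIs, at least 3.61 on the log2 scale against 3 counts. Chl1, an adhesion molecule of the L1 family, had 83.6, 14.5 and 6.53 CPM.

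Both heparin-binding growth factors were higher after injury too. Ptn, pleiotrophin, had 519 CPM in injured epineurial-set cells, 605 in FACS ones and 70.2 in uninjured ones, a log2 ratio of 2.88 (2.42 to 3.38), with UMIs in 62 cells. Mdk had 309, 311 and 37.6 CPM, a ratio of 3.04 (2.41 to 3.73). In cells with no other set above 0, the Mdk ratio was 1.30. Igf1, insulin-like growth factor 1, had 2637, 1827 and 1284 CPM and passed the size rule at a log2 ratio of 1.04 in the beads library and not in the FACS library, at 0.51.

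Several of the highest ratios rested on few cells or on genes abundant in leukocytes. Hp (chr8:109575128-109579172), haptoglobin, had 106 CPM in injured epineurial-set cells, 94.5 in FACS ones and 1.63 in uninjured ones (1 UMI), a log2 ratio of 6.02 (3.49 to 11.34), from 62 UMIs in 17 cells. Neutrophil-class cells had 967 CPM of it. Cxcl2, a neutrophil attractant, had 61.4 CPM against 1.63 and was at 25109 CPM in neutrophil-class cells. H2-Ab1, an MHC class II chain, had 64.8 CPM against 4.90 and 6106 CPM in phagocyte-class cells. Of the 99 UMIs of Spp1, osteopontin, 45 came from 1 cell, as did 49 of the 63 of the interferon-induced chemokine Cxcl9, 23 of the 41 of the proteoglycan Epyc and 19 of the 36 of the acute-phase gene Saa3. Cxcl9 and Saa3 were at 0 in uninjured epineurial-set cells, and Cxcl9 had only 5.82 CPM in FACS ones.

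Markers of other classes moved with this contrast. Phagocyte markers summed to 474 CPM in injured, 1280 in FACS and 31.0 in uninjured epineurial-set cells, and neutrophil markers to 167, 40.7 and 31.0 CPM. In the other injured mesenchymal cells they summed to 437 and 87.7 CPM. Erythroid markers ran the other way, at 93.8 CPM in injured and 2664 in uninjured epineurial-set cells. At least 3 UMIs of 1 other class were found in 70 of 253 injured, 81 of 258 uninjured and 114 of 153 FACS epineurial-set cells. The part of this RNA in the result was not tested beyond leaving such cells out. Without them the log2 ratio was 4.56 for Hp, 4.29 for Agtr2 and at least 2.04 for Cxcl2, which then had 0 uninjured UMIs.

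The lowest ratios after injury concerned a nucleolar RNA, a cytokine receptor and heat shock genes. Snord13 (chr8:31149864-31149967), a small nucleolar RNA, had 2 UMIs against 48 (3.41 and 78.4 CPM, and 18.9 CPM in FACS cells), a log2 ratio of -4.52 (-7.61 to -2.59). Il6ra, the interleukin 6 receptor, had 11.9, 10.2 and 62.1 CPM in injured, FACS and uninjured epineurial-set cells. The chaperones Hspa1b and Hspa1a had 49.5 against 222 CPM and 69.9 against 305 CPM. They are near-identical copies, so the split between them is uncertain.

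C7, a terminal complement component, had 47.8, 36.4 and 199 CPM in injured, FACS and uninjured epineurial-set cells, and the ligand Bmp4 30.7, 32.0 and 126 CPM. Angpt4 (a Tie2 ligand), Sun1 (a nuclear envelope protein), the ligand Wnt11, Krtdap and Fads1 (a fatty acid desaturase) completed the named genes, with log2 ratios between -1.94 and -1.72. With no other set above 0, Sun1 (-1.18), Wnt11 (-0.67), Krtdap (-0.32) and Fads1 (-0.45) did not pass the size rule. In each library of injured nerve C7 and Bmp4 were thus at similar levels, below the uninjured one.

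**Figure D4:**
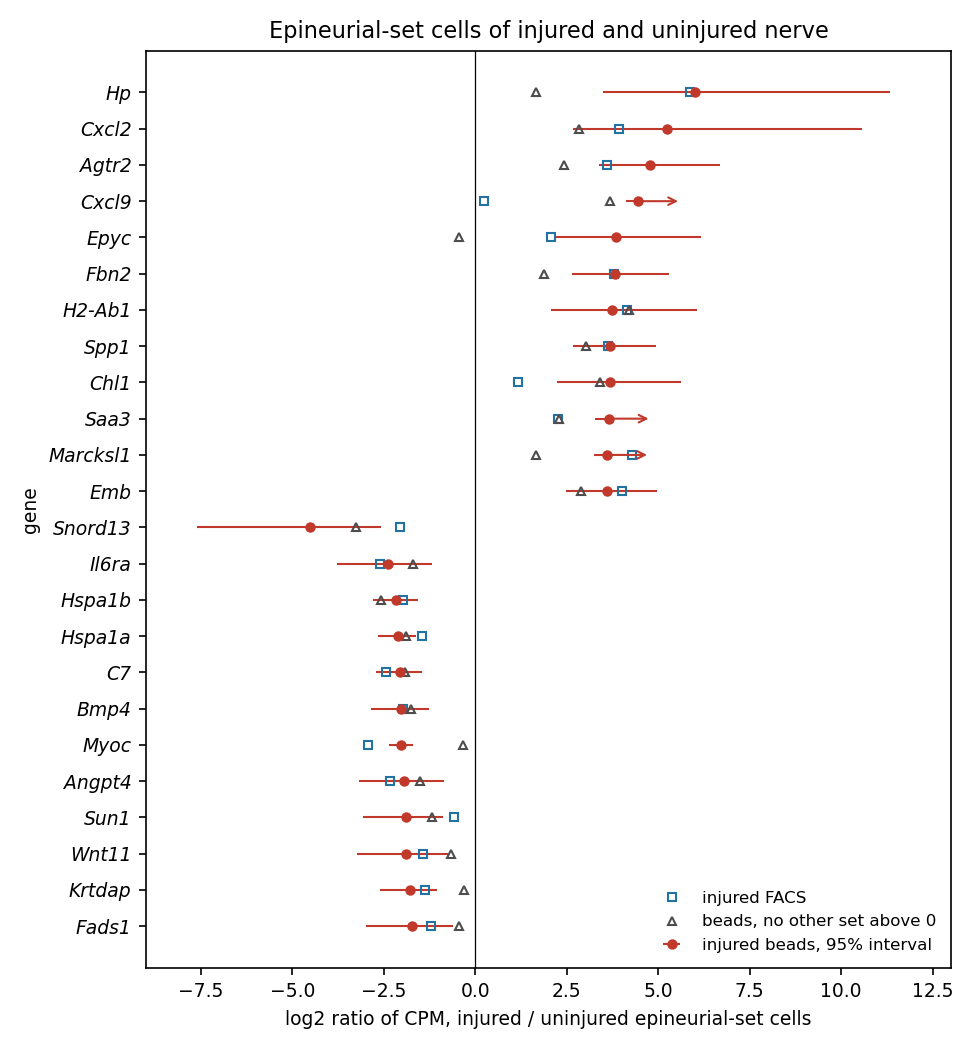
Log2 ratio of injured to uninjured epineurial-set cells for the named genes (horizontal axis), as red circles for the beads library with 95% intervals, blue squares for the FACS library against the same uninjured pool, and grey triangles for cells with no other set above 0; an arrow marks a lower bound taken against 3 counts. Il6ra, C7 and Bmp4 lie between -2.61 and -1.97 in both injured libraries, and Cxcl9 is at 0.25 in the FACS library.

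The plot of injury ratios shows where the restriction to 164 injured and 104 uninjured cells with no other set above 0 moved a value. Epyc went to -0.44 and Myoc to -0.33 in them, from 3.84 and -2.03. Myoc belonged to a list of 7 genes known from resting endoneurium, of which 5 were lower and 1 (Cdkn1c, a cell cycle inhibitor) was higher, with a median of -1.60. Angptl7, a secreted angiopoietin-like protein, had 121, 88.7 and 379 CPM in injured, FACS and uninjured epineurial-set cells, and Enpp2, the enzyme autotaxin, 39.2, 40.7 and 119 CPM. Without cells that carried RNA of other classes the log2 ratio of Enpp2 was -0.12 (-1.16 to 0.90), from -1.60, and with no other set above 0 it was -0.33. With mixed scores left out, or without cells that carried RNA of other classes, 3 genes of this list were lower.

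Of the transcripts that marked epineurial-set cells, several were at lower levels after injury, others were under the size rule, and Col14a1 was higher. For some, the value depended on the choice of cells. Gsn had 9269 CPM in injured, 7545 in FACS and 29359 in uninjured epineurial-set cells, a log2 ratio of -1.66. Inmt (-1.34), Comp (-1.26), Smpd3 (-1.48) and Cxcl13 (-1.22) passed the size rule as lower, with FACS values of -1.74, -3.14, -3.38 and -1.89. With no other set above 0, Smpd3 (-0.51) and Cxcl13 (-0.56) no longer passed, and Inmt (-1.39) and Comp (-1.24) did. Pcsk6 and Cadm3, at -0.85 and -0.29 and under the size rule in all cells, were at 2.26 and 0.73 there. Of the 22 universal fibroblast genes, all past 50 CPM, 1 was higher and 2 were lower, with a median of -0.55. TMM factors and DESeq2 size factors each gave 0 higher and 4 lower, and cells with no other set above 0 gave 3 higher and 0 lower, so no direction is drawn for this list. The genes of the rule were at -1.21 for Pcolce2, -0.73 for Clec3b, -0.68 for Pi16, -0.52 for Dpp4 and -0.15 for Sema3c. In cells with no other set above 0 they were at -0.15, -0.55, 0.61, 0.64 and 0.41, so that the sign turned for Pi16, Dpp4 and Sema3c.

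Genes of the differentiating set, also part of the rule and given as a description, were read in injured epineurial-set cells. Postn, the matrix protein periostin, was seen in 180 of 253 injured and 111 of 258 uninjured cells, with 2381 and 740 CPM. Mest, an imprinted gene, was seen in 95 and 29 cells, and Cthrc1, a secreted protein of collagen-rich repair tissue, in 70 and 4. Dlk1, a transmembrane protein of precursor cells, was seen in 38 and 2 cells, with 368 and 6.53 CPM. Tnc, tenascin-C, was seen in 36 injured cells and in 0 of 258 uninjured ones. FACS epineurial-set cells had 2275 CPM of Postn, 714 of Mest and 560 of Dlk1. The rule removes cells that score higher for these genes than for the epineurial set, so their levels here are bounded by the choice.

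Matrix and protease genes past the size rule after injury are counted here, beside 6.05% higher and 3.46% lower of all 3935 genes. Of 14 collagens past 50 CPM, 1 was higher (Col14a1, 1690 against 818 CPM), and of 17 elastic fibre genes 2 were higher, Fbn2 and Mfap2 (621 against 258 CPM). Among 13 matricellular and adhesive proteins, Thbs1, Thbs4 and Vcan were higher and Comp was lower, while only 1 was higher in the FACS library. Vcan, the large proteoglycan versican, had 571, 436 and 240.1 CPM in injured, FACS and uninjured epineurial-set cells. Timp1 had 251, 297 and 75.1 CPM. With no other set above 0, log2 ratios were 0.33 for Timp1, 0.32 for Thbs4, 0.57 for Vcan, 0.99 for Mfap2 and -0.16 for Plau, none of which passed the size rule. In the 24 proteases and inhibitors 4 were higher and 1, the activator Plau, was lower. Cd44, a hyaluronan receptor, had 106, 115 and 22.9 CPM. Median log2 ratios were 0.48 for collagens, 0.23 for elastic fibre genes, 0.33 for matricellular proteins, 0.53 for basement membrane genes, 0.01 for proteases and -0.09 for hyaluronan genes, beside 0.12 for all genes. Small leucine-rich proteoglycans had a median of -0.79, with 0 higher and 2 lower of 9, and 4 lower in the FACS library.

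Chemokines gave 5 higher and 1 lower of 13 past 50 CPM, with a median of 0.79, but single cells weighed heavily on them. Ccl2 had 225 CPM in injured epineurial-set cells, 56.7 in FACS ones and 21.2 in uninjured ones, and 62 of its 132 UMIs came from 1 cell. For Ccl7, a related monocyte attractant, 89 of 206 UMIs came from 1 cell, and for Il6 35 of 53. Without cells that carried RNA of other classes 2 chemokines were higher, as in the FACS library.

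Immediate early genes were lower after injury in 8 of 19 cases, with 0 higher and a median of -0.85. Junb had 541, 906 and 1197 CPM in injured, FACS and uninjured epineurial-set cells, Klf4 428, 621 and 897 CPM, and Socs3, a feedback inhibitor of cytokine signalling, 102, 154 and 248 CPM. Only 2 of the list were lower in the FACS library, 4 with each cell at the same weight and 5 after thinning. Redox genes were lower in 3 of 10 cases and higher in 0, among them Mt1, with 565, 1005 and 1272 CPM, and Gstm1, with 394, 474 and 800.2 CPM. The alcohol dehydrogenase Adh1 had 109, 81.4 and 255 CPM. Klf4 (-0.86) and Gstm1 (-0.63) did not pass with no other set above 0, nor did Junb (-0.77) without cells that carried RNA of other classes.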

How the data were processed

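Drop-seq counts of 3 libraries were used. The values the authors deposited are counts of UMIs for each gene in each cell, with no normalization. The submitters' processing notes name the build mm10. The aligner, the counter and how the authors chose mesenchymal cells were not stated in what was read here, and gene positions are from GENCODE vM21. FACS cells were those with at least 200 genes whose highest class score, over 12 marker lists, was mesenchymal. Scores used log1p of counts per 10000, z-scored per gene over the cells of a table and averaged per set. Genes with no row in the uninjured table were taken as 0 there; those with no row in the FACS table got no value. No doublet caller was run, so doublets remain.

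Counts were summed per pool. Ratios carry exact conditional binomial intervals, CPM exact Poisson intervals and shares exact binomial (Clopper-Pearson) intervals, at 95%, all for counting error only. A pool at 0 was set to 3 counts, which gives a bound. Neighbours came from 2000 variable genes and 20 principal components. Named genes were the 12 highest and 10 lowest ratios past the size rule that also reached 2-fold with the same sign among FACS cells (epineurial-set against other cells), and the 12 highest and 12 lowest (injured against uninjured). The genes of the 4 sets, markers of non-mesenchymal classes and mitochondrial, ribosomal, haemoglobin and predicted genes were left out. From 27 gene lists, the genes past the rule and the extreme genes with at least 50 CPM could be named. Krtdap against the other injured cells, Gsn in that contrast and the genes given by number of chosen genes seen were picked after their values were seen. The cells, the gene lists and the tests were chosen with earlier results of these data known. Alternatives were other scalings, floors, thinning, other cell choices, and leaving out cells with at least 3 UMIs of another class. Python 3.11.15 (numpy 2.4.6, scipy 1.17.1, pandas 2.3.3, scikit-learn 1.9.0) and R 4.3.3 (edgeR 4.0.16, DESeq2 1.42.0) were used, and the calls were tested on simulated data.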

Additional observations from a re-analysis of the deposited data

Results flagged for a closer look

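Some genes differed from the other cells in opposite directions in injured and uninjured nerve. Aldh1a3, an enzyme that makes retinoic acid, had a log2 ratio of epineurial-set to other cells of -1.80 after injury and 3.38 without injury, and the growth factor Igf2 had -1.58 and 1.09. Apoe, a lipid carrier also abundant in phagocytes, had 1.33 and -1.07, and the secreted protein Crispld2 had 1.04 and -2.08. Between injured and uninjured nerve, 2 genes moved in opposite directions in epineurial-set and endoneurial-set cells. The cell cycle inhibitor Cdkn1c had a log2 ratio of 1.16 in epineurial-set cells and -1.57 in endoneurial-set cells, and the plasminogen activator Plau had -1.07 and 1.23. With 1 library per group these differences were not tested.

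Outside the authors' mesenchymal table, 27 of 2822 barcodes of the injured beads library with at least 200 genes met the rule with 2 or more of the 5 genes (0.957%, 0.631 to 1.39). The rate at which free RNA of these genes gives such barcodes was not measured, and its part in the count was not tested. Their median depth was 2893 UMIs. Only 3 of them scored highest for mesenchymal markers.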

How the results depend on the processing

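No paired analysis was possible because each group is 1 library and the labels give no replicate numbers. The share of injured cells taken, 19.6%, was 17.4% with at least 2 of the 5 genes, 22.5% without Dpp4 in the set and 12.7% for cells with no other set above 0. The uninjured share was 26.0% without Clec3b, 41.25% with injured z-scores and 11.8% with no other set above 0, and the FACS share 23.8% with injured z-scores and 12.4% with no other set above 0. Genes higher and lower than in other injured cells were 689 and 692 with a floor of 10 CPM and 820 and 692 with no floor, and 355 were lower with no other set above 0 (a setting added once the data had been seen). Genes higher and lower after injury were 641 and 312 with a floor of 10 CPM and with no floor, 213 were lower with TMM factors, 217 lower with DESeq2 size factors, and 373 higher with each cell at the same weight. Signs were followed only for named genes and genes of the lists that passed the size rule, not for all genes past it. Against other cells they reversed for Agtr2 (-0.40), Cxcl9 (-2.34), Epha3 (0.13) and Isg15 (-0.51) in the FACS library. With no other set above 0 the sign reversed for Agtr2 (-0.24). Among the named and listed genes past the size rule after injury, signs reversed for Isg15 (-0.11 thinned, -0.45 in the FACS library). They also reversed for Ccl7 (-0.0099 without cells with RNA of other classes), and for Acta2 (0.14) and Epyc (-0.44) with no other set above 0. The causes were not tested. Other settings tried for these counts and shares stayed within 1.5 times or within the counting interval. A similar count could hold different genes: thinning kept 106 of the 238 higher and 70 of the 136 lower genes after injury. After thinning, 191 of the 253 injured cells had enough UMIs, and scoring the thinned table anew took 193 of 974 cells. Depth limits genes at a few UMIs, such as Cxadr and Snord13.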
